A study of Mus musculus with 75 samples.

Results

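The primary cilium and hedgehog transduction genes are 42 listed symbols whose products build the primary cilium, move cargo along it or carry the hedgehog signal inside it. Members were found by gene symbol, a rule that uses no measured value, although the list was drawn up with earlier results of these data known. A named probe set was found for 39 of the 42, which is 39 of 21552 genes measured. Arl6, Arl13b and Tctn1 were not analysed here. The 39 genes fell into 8 roles, namely 9 genes of intraflagellar transport complex B, 2 of complex A, 4 motor subunits, 6 subunits of the BBSome, 3 genes for ciliary membrane cargo, 6 of the transition zone and basal body, 8 hedgehog transduction genes and 1 transcription factor of cilium genes.

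The primary cilium is a single antenna that most cells, granule neuron progenitors of the cerebellum among them, grow from the mother centriole when they are not dividing. Kinesin carries intraflagellar transport (IFT) trains to its tip and dynein carries them back, the BBSome takes receptors out, and the transition zone gates its base. In vertebrates hedgehog signalling runs through this organelle: without ligand Ptch1 keeps Smoothened (Smo) out, and Gli proteins are processed to repressors with the help of Sufu, Kif7 and Gpr161. With the pathway on, Smo enters the cilium and Gli activators form. Medulloblastomas that lack Ptch1 signal without ligand, and a Smo inhibitor stops the signal at the cilium.

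The data are 75 one-colour expression arrays of mouse medulloblastoma allografts, tumours from Ptch1+/- mice grown in nude CD1 mice, so that controls and treated samples share genotype and host. Mice received vehicle or MK4101, an inhibitor of the sonic hedgehog pathway, at 40 or 80 mpk (the dose unit of the labels), and tumours were taken at 1, 6, 12, 24 or 36 h after a single dose (QD) or at 24 or 36 h under multiple dosing (BID). The vehicle groups held 5, 5, 4, 5 and 3 arrays at the 5 single-dose times, the 40 mpk groups 4, 5, 3, 4 and 3, and the 80 mpk groups 5, 3, 4, 4 and 4. Multiple dosing at 24 h was measured with 4 arrays of vehicle but only 1 of 80 mpk, and at 36 h with 5 of vehicle and 4 of 80 mpk. Mouse ages, the number of donor tumours and whether each array is a mouse of its own are not stated in the labels, so p-values measure the spread between samples. An allograft also holds cells of the host.

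Values are scaled intensities, each array having a mean of 1, and differences are log2 of treated minus vehicle of the same schedule and time with the standard error (SE). A gene was called, and is said to rise or fall, where its adjusted p in limma was under 0.05 after Benjamini-Hochberg adjustment over all 21552 genes. In bulk tissue fewer cells of a type and less RNA per cell cannot be told apart. Both doses at one time were compared with the same vehicle arrays, so their differences are not independent. Precision is set by how many arrays a group has, and brightness does not rank different probe sets. The block of the pathway was visible in Gli1, its usual readout, which fell with 80 mpk from 2.82 to 0.176 at 6 h and changed by -4.48 at 12 h, -3.19 at 24 h and -2.90 under multiple dosing at 36 h. At 36 h after a single dose Gli1 stood at 2.66 after 80 mpk against 2.57 in the vehicle group (0.05 ± 0.23, adjusted p = 0.936). With 40 mpk Gli1 changed by -3.22, -3.57 and -1.23 at 6, 12 and 24 h. Of 10 progenitor markers of the granule lineage, 9 had a geometric mean over all arrays above the highest array median of 0.131, from 0.0621 for Lhx9 to 33.2 for Zic1, with Atoh1 at 20.5. Of 20 motile cilium genes 10 did, from 0.0265 for Rsph4a to 2.77 for Tppp3, with Foxj1 at 0.434. These levels depend on the probe sets and were not used to compare cell types.

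On 23 of the 75 arrays the mean log2 intensity of 14 skeletal muscle genes was above 0, and over all arrays it ran from -3.19 to 4.61. These muscle-rich arrays were spread over 16 of the 19 groups, with 3 of 4 in the 40 mpk group at 24 h and 0 of 3 in the vehicle group at 36 h, and the counts of called members at 6 h and later are also given without them.

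Many cilium genes carry X-boxes, the sites of RFX transcription factors such as the member Rfx3, close to their start. In RefSeq windows of 250 bases before to 50 bases after the start (build GRCm38.p6), which existed for 35 of the 39 genes, the half-site GTTGCC was found on either strand in 16 genes (45.7%), against 14.1% of 27025 genes with a window. The inverted pair GTNNCC, 0 to 3 bases, GGNNAC, which can overlap the half-site, was found in 7 (20%) against 4.39% of all genes. A Gli site, GACCACCCA, was found in 0 of the 35 and in 0.289% of all genes. The stretches below lie before the start used for the window in 5 members described in the results. They are on the strand of the gene, with the matched letters in capitals. The annotated span of Mks1 begins at 87853182 and that of Bbs7, on the minus strand, at 36613492, so both stretches reach into the annotated gene. Ift57 is shown for its 2 inverted pairs within 80 bases, Mks1, Bbs7 and Tctn2 for a single pair, and Ift27 for a half-site next to its start.
Ift57, chr16:49699187-49699266, plus strand: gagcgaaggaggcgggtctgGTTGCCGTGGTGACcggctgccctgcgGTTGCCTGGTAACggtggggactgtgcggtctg
Mks1, chr11:87853171-87853214, plus strand: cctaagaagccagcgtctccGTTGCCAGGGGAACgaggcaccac
Bbs7, chr3:36613477-36613530, minus strand: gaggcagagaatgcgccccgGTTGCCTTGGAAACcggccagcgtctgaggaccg
Tctn2, chr5:124598667-124598720, plus strand: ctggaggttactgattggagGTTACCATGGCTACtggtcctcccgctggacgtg
Ift27, chr15:78174082-78174110, minus strand: gagaaggcgggttgatgatgGTTGCCagg

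The motif was not confined to genes that were called. The half-site was found in 8 of 13 genes with a window that were called in none of the 11 treatment comparisons, in 5 of 14 called higher at least once and in 3 of 10 called lower at least once. A match describes letters only and was not tested for binding.

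The comparisons ask whether the machinery that the pathway needs changed when the pathway was blocked. Members were called in both directions. At 12 h after a single dose most called members were higher, at 24 h and under multiple dosing both directions occurred, and at 36 h after a single 80 mpk dose all called members were lower. At 12 h with 40 mpk 8 of 39 members were called, 7 higher and 1 lower, where 6.5% of all genes were called (3.9% higher, 2.59% lower). At 12 h with 80 mpk 10 were called, 8 higher and 2 lower, against 9.84% (3.85% higher, 5.99% lower). These counts rested on few arrays. With 40 mpk 2 members were called without treated replicate 1 (3.59% of all genes), 4 without treated replicate 2 (4.25%), 4 without vehicle replicate 3 (5.17%) and 3 when only the groups compared were fitted (3.04%). With 80 mpk 5 were called without vehicle replicate 3 (7.88%), 6 without treated replicate 1 (7.98%) and 4 when only the groups compared were fitted (4.67%). The median difference over the members was 0.20 with 40 mpk and 0.16 with 80 mpk, while that over all genes was -0.00093 and -0.0054. Treated and vehicle arrays did not overlap for 19 of 39 members with 40 mpk (17.2% of all genes) and for 12 with 80 mpk (12.4%).

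At 24 h 12 members were called with 40 mpk (9 higher, 3 lower, where 26.6% of all genes were called, 14.5% higher and 12.1% lower) and 11 with 80 mpk (7 higher, 4 lower, against 32.9%, 17.6% higher and 15.3% lower), total shares of 30.8% and 28.2% that lie near the background. At 36 h after a single dose 7 members fell and 0 rose with 80 mpk (10.9% of all genes called, 5.22% higher and 5.64% lower), and with 40 mpk limma called 0 (0.677% of all genes), with 7 at an unadjusted p under 0.05. The count of 7 with 80 mpk was 4 without vehicle replicate 3 (5.92% of all genes) and 3 when only the groups compared were fitted (3.99%). Under multiple dosing at 36 h 17 were called, 8 higher and 9 lower (43.6% of members, against 37.4% of all genes, 19.8% higher and 17.7% lower). The median member stood at percentile 65.5 of all genes by level. With dim genes left out, 38 members and 14368 genes remained. At 24 h 10 were then higher and 3 lower with 40 mpk (40.6% of these genes called) and 7 and 6 with 80 mpk (49.7%). At 36 h 0 and 7 were called with 80 mpk (18.4%), and 9 and 9 under multiple dosing (54.6%). At 12 h the counts were 9 and 1 with 40 mpk (11%) and 10 and 2 with 80 mpk (16%). At 6 h with 80 mpk the single call was Spop (1.75% of all genes). At 6 h with 40 mpk limma called 0 (1.68% of all genes; 7 members at an unadjusted p under 0.05), and at 1 h it called 0 at either dose (0% of all genes; 7 members at an unadjusted p under 0.05 with 40 mpk and 3 with 80 mpk).

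Without the muscle-rich arrays the counts at 12 h were 5 with 40 mpk (3.32% of all genes called) and 4 with 80 mpk (6.27%), and those at 24 h were 4 (7.95%) and 7 (22.6%). At 36 h they were 0 with 40 mpk (0%), 6 with 80 mpk (5.43%) and 12 under multiple dosing (29.5%), and at 6 h 0 with 40 mpk (1.51%) and 0 with 80 mpk (0.473%). That setting left 1 treated array in the 40 mpk groups at 24 h and 36 h and the 80 mpk group at 6 h, assumed to vary like the other groups. The direction split at 24 h depended on the setting. Centring each array on its median, which lowered the median difference over all genes by 0.16 with either dose at 24 h and by 0.15 under multiple dosing, gave 1 higher and 12 lower with 80 mpk at 24 h (47.6% of all genes called), 1 and 5 with 40 mpk (41%), and 3 and 15 under multiple dosing (43.3%). The fit with muscle and fibroblast covariates moved the split the other way, to 13 higher and 3 lower with 80 mpk at 24 h (26.6% of all genes), 15 and 2 with 40 mpk (22.7%), and 12 and 4 under multiple dosing (28.9%). At 12 h, where centring raised the median by 0.04 and 0.05, it gave 5 higher and 1 lower at either dose (4.95% and 7.12% of all genes). No called member reversed under median centring or a second quantile normalization, but the smaller rises at 24 h were about the size of the shift.

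**Figure D1:**
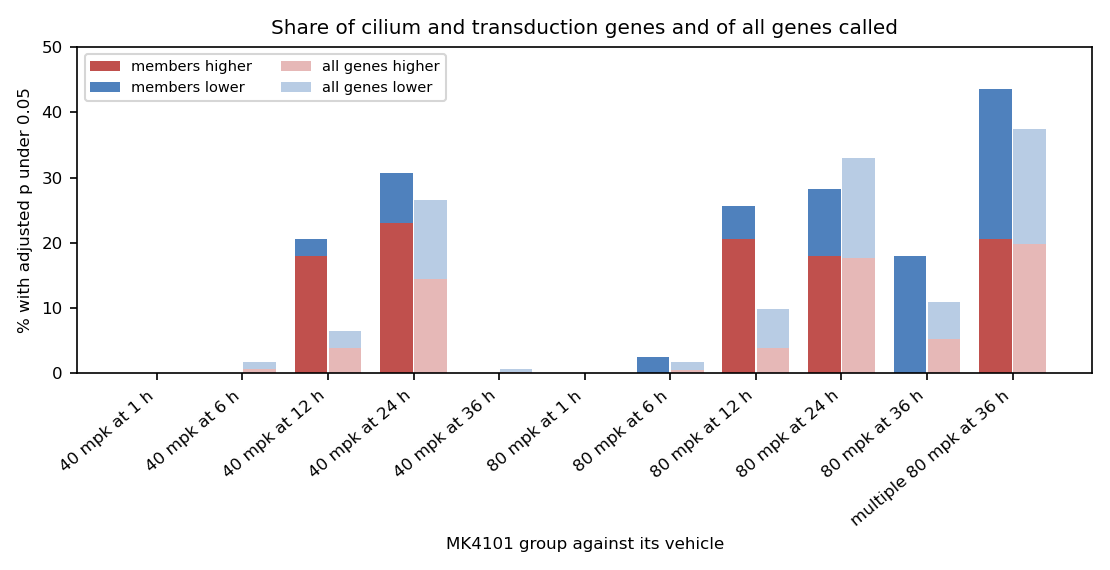
Percentage of the 39 members (dark bars) and of all 21552 genes (pale bars) with an adjusted p under 0.05 in each MK4101 group against its vehicle, split into higher (red) and lower (blue). The member bars stand above the gene bars at 12 h, where most called members were higher, and lie near them at 24 h.

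**Figure D2:**
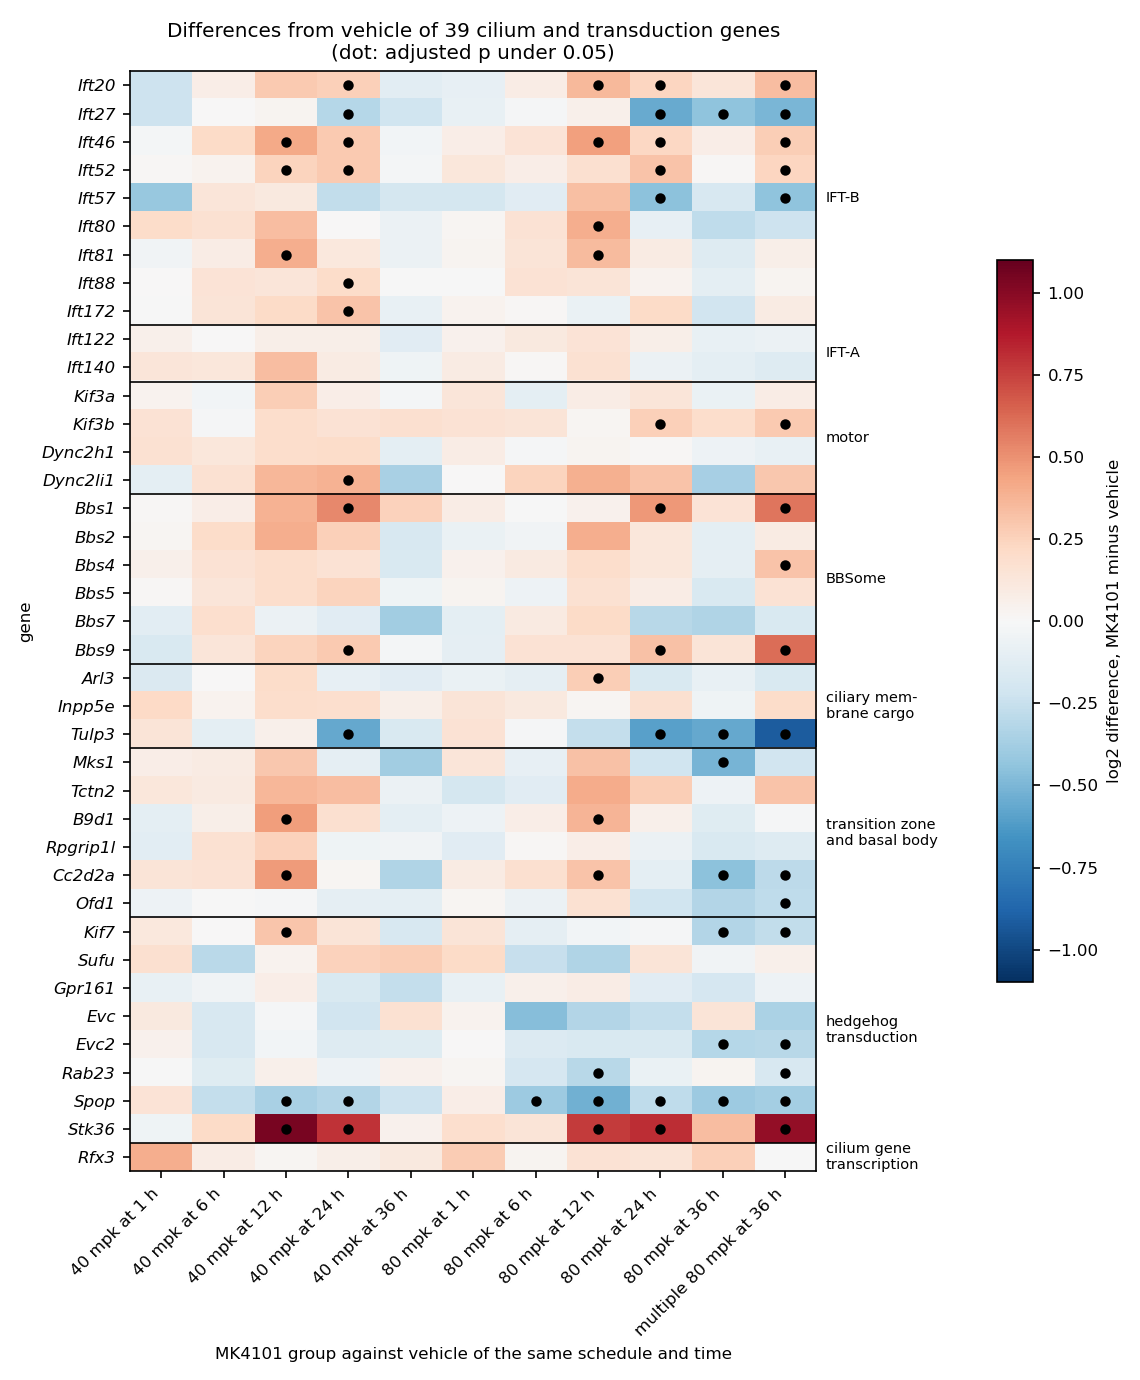
Log2 difference of MK4101 minus vehicle for the 39 members (rows, ordered by role) in 11 treatment comparisons (columns), red for higher and blue for lower, with a dot where the adjusted p was under 0.05. Stk36 is the reddest row, and Spop, Tulp3 and Ift27 carry most of the blue dots.

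IFT complex B, which carries cargo towards the tip of the cilium, held both rises and falls. Of its 9 measured genes 3 rose at 12 h with 40 mpk and 4 with 80 mpk, with 0 lower. Of all genes 3.9% and 3.85% rose in these comparisons, and 2.59% and 5.99% fell. Ift46, which in the alga Chlamydomonas is needed to bring outer dynein arms into flagella, rose in 5 of the 11 comparisons. At 12 h the 4 vehicle arrays had Ift46 intensities of 1.96, 1.99, 2.01 and 2.23, the 3 arrays of 40 mpk had 2.63, 2.74 and 2.85, and the 4 of 80 mpk had 2.66, 2.79, 2.82 and 2.92. Every treated array lay above every vehicle array, with differences of 0.42 ± 0.07 (adjusted p = 3.06e-05) and 0.45 ± 0.07 (adjusted p = 8.28e-07). At 24 h Ift46 stood at 1.85, 1.88, 2.03, 2.11 and 2.24 with vehicle, 2.38, 2.46, 2.48 and 2.58 with 40 mpk and 2.29, 2.37, 2.38 and 2.39 with 80 mpk. These rises were smaller, 0.29 ± 0.06 and 0.22 ± 0.06, and again without overlap. Under multiple dosing at 36 h the 5 vehicle arrays had 1.86, 1.93, 1.93, 2.02 and 2.03 and the 4 treated arrays 2.18, 2.34, 2.42 and 2.49, a rise of 0.27 ± 0.06 (adjusted p = 0.000384). At 36 h after a single 80 mpk dose Ift46 differed by 0.07 ± 0.07 (adjusted p = 0.633), and the arrays overlapped. Centring on the array median left the 12 h calls and ended those at 24 h and under multiple dosing (0.13 with 40 mpk and 0.06 with 80 mpk at 24 h, and 0.12).

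Ift52, a core subunit that holds the complex together, rose at 12 h with 40 mpk, from 2.55, 2.57, 2.66 and 2.74 to 3.04, 3.04 and 3.27 (0.25 ± 0.07, adjusted p = 0.0233). At 24 h it was at 2.1, 2.38, 2.41, 2.43 and 2.43 with vehicle, 2.71, 2.89, 2.9 and 2.98 with 40 mpk and 2.57, 2.99, 3.02 and 3.1 with 80 mpk. One vehicle array lay below the others, and all treated arrays lay above the vehicle range, with rises of 0.29 ± 0.06 and 0.31 ± 0.06. Under multiple dosing Ift52 rose from 2.36, 2.44, 2.46, 2.51 and 2.61 to 2.74, 2.74, 2.96 and 3.26 (0.24 ± 0.06, adjusted p = 0.00153). Ift20, the subunit that also resides at the Golgi and sorts cargo for the cilium, rose at 12 h with 80 mpk from 1.38, 1.4, 1.42 and 1.5 to 1.7, 1.8, 1.82 and 1.97 (0.35 ± 0.09, adjusted p = 0.00639), with no overlap. At 24 h Ift20 was at 1.45, 1.57, 1.65, 1.71 and 1.74 with vehicle, 1.59, 1.9, 2.16 and 2.18 with 40 mpk and 1.62, 1.87, 1.98 and 2.21 with 80 mpk, and the groups overlapped (0.26 ± 0.09, adjusted p = 0.0208 and 0.24 ± 0.09, adjusted p = 0.0319). Under multiple dosing it rose from 1.21, 1.38, 1.42, 1.42 and 1.51 to 1.54, 1.68, 1.84 and 1.97 (0.34 ± 0.09). Median centring ended the calls of both genes at 24 h and under multiple dosing (Ift52 0.13, 0.15 and 0.09, Ift20 0.10, 0.07 and 0.19 with 40 mpk, 80 mpk and multiple doses).

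Ift27, a small GTPase of the complex that in mice is needed to take the BBSome and hedgehog components out of cilia, went the other way. At 12 h the vehicle arrays had 2.05, 2.28, 2.39 and 2.4 and the 80 mpk arrays 2.36, 2.36, 2.37 and 2.39, a difference of 0.06 ± 0.08 (adjusted p = 0.798). At 24 h vehicle arrays stood at 2.09, 2.41, 2.45, 2.61 and 2.67, the 40 mpk arrays at 1.72, 1.92, 2.03 and 2.17 and the 80 mpk arrays at 1.58, 1.58, 1.69 and 1.77. The 80 mpk arrays lay below all vehicle arrays and 1 array of 40 mpk lay above the lowest vehicle array, with falls of -0.56 ± 0.08 (adjusted p = 6.44e-08) and -0.32 ± 0.08 (adjusted p = 0.0017). At 36 h Ift27 was still lower after a single 80 mpk dose, at 1.53, 1.71, 1.75 and 1.88 against 2.27, 2.33 and 2.38 (-0.44 ± 0.09, adjusted p = 0.00045), at a time when Gli1 was not called. Under multiple dosing it fell from 2.02, 2.23, 2.25, 2.28 and 2.36 to 1.5, 1.56, 1.58 and 1.65 (-0.50 ± 0.08, adjusted p = 4.97e-07). The 80 mpk calls of Ift27 held in every setting and without any single array. The 40 mpk call was lost without muscle-rich arrays (-0.16) and with muscle and fibroblast covariates (-0.15).

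The remaining complex B genes were called in 1 or 2 comparisons each. Ift81, which with Ift74 binds tubulin, rose at 12 h by 0.40 ± 0.12 with 40 mpk and 0.35 ± 0.11 with 80 mpk, and Ift80, mutated in skeletal ciliopathy in humans, by 0.40 ± 0.11 with 80 mpk. Ift88, whose loss removes cilia in mice, and Ift172 rose with 40 mpk at 24 h by 0.20 ± 0.07 and 0.31 ± 0.11. Ift57, whose 2 matches to the inverted pair are printed above, fell at 24 h with 80 mpk (-0.45 ± 0.17, adjusted p = 0.0304), the vehicle arrays lying at 1.55 to 1.88 and the treated arrays at 1.01 to 1.41, and under multiple dosing by 0.44 ± 0.17. With muscle and fibroblast covariates the falls of Ift57 were -0.13 and -0.04 and not called. Single arrays decided several calls: Ift52 at 12 h was lost without treated replicates 1 and 2 or vehicle replicates 2 and 3 (0.0505 to 0.165), Ift81 with 40 mpk without treated replicates 1 and 2 or vehicle replicates 1 and 3 (0.0508 to 0.158) and with 80 mpk without treated replicates 1 and 4 or vehicle replicates 1 and 3 (0.0545 to 0.131), and Ift80 without treated replicate 1 or vehicle replicate 3 (0.0642 to 0.0908), adjusted p-values being in parentheses. At 24 h Ift20 was lost without treated replicates 1 and 4 or vehicle replicate 2 (0.0755 to 0.109) with 40 mpk and treated replicates 1 and 2 or vehicle replicates 2 and 5 (0.0616 to 0.197) with 80 mpk, Ift88 without treated replicates 2 and 4 or vehicle replicates 3, 4 and 5 (0.0518 to 0.147), Ift172 without treated replicates 2 and 3 or vehicle replicate 1 (0.0575 to 0.118) and Ift57 without treated replicate 3 or vehicle replicates 3 and 4 (0.0664 to 0.144). Under multiple dosing Ift57 was lost without treated replicates 1 and 3 or vehicle replicates 2 and 5 (0.0772 to 0.168).

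IFT complex A, which brings membrane receptors into the cilium and takes part in return transport, showed no call in its 2 measured genes. Ift122 ranged from -0.12 to 0.15 over the 11 comparisons. Ift140 ranged from -0.14 to 0.34, with its largest difference at 12 h with 40 mpk (0.34 ± 0.11, adjusted p = 0.0563). Of the motors, Kif3b, a subunit of the kinesin that drives IFT, rose at 24 h with 80 mpk (0.26 ± 0.08, adjusted p = 0.00531, vehicle 1.08, 1.09, 1.1, 1.18 and 1.19 and treated 1.23, 1.3, 1.43 and 1.45) and under multiple dosing (0.29 ± 0.08, adjusted p = 0.00163). Both calls of Kif3b were lost with median centring (0.10 and 0.14). Its partner Kif3a ranged from -0.11 to 0.27 and was not called. Dync2li1, the light intermediate chain of the dynein that returns IFT trains, rose at 24 h with 40 mpk (0.38 ± 0.14, adjusted p = 0.0437), a call lost without treated replicates 1, 3 and 4 or vehicle replicates 1 and 5 (0.0694 to 0.184). The heavy chain Dync2h1 ranged from -0.10 to 0.20 and was not called.

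The BBSome, the coat that carries receptors out of the cilium, had 0 calls at 12 h. Of all genes 6.5% were called there with 40 mpk and 9.84% with 80 mpk. At 24 h 2 of its 6 genes were higher at either dose, where 14.5% and 17.6% of all genes were. Under multiple dosing 3 of 6 were higher (19.8% of all genes). In the 11 comparisons 0 BBSome genes were called lower. Bbs9, a scaffold subunit, had the largest rise under multiple dosing. The vehicle arrays stood at 0.239, 0.273, 0.285, 0.289 and 0.291 and the treated arrays at 0.397, 0.411, 0.437 and 0.441. All treated arrays lay above all vehicle arrays, a rise of 0.62 ± 0.08 (adjusted p = 2.31e-09) that held in every setting. At 24 h after a single dose Bbs9 was at 0.253, 0.261, 0.297, 0.313 and 0.324 with vehicle, 0.324, 0.346, 0.368 and 0.377 with 40 mpk and 0.35, 0.355, 0.367 and 0.372 with 80 mpk, rises of 0.29 ± 0.08 and 0.32 ± 0.08. The 80 mpk arrays lay above all vehicle arrays and the 40 mpk arrays overlapped them. Bbs1, whose human gene is the most often mutated in Bardet-Biedl syndrome, was dim. It rose at 24 h from 0.128, 0.162, 0.166, 0.171 and 0.194 to 0.202, 0.225, 0.23 and 0.293 with 40 mpk (0.53 ± 0.16, adjusted p = 0.00708) and 0.184, 0.214, 0.232 and 0.289 with 80 mpk (0.48 ± 0.16, adjusted p = 0.0126), where the 80 mpk arrays overlapped vehicle. Under multiple dosing it rose from 0.133, 0.155, 0.169, 0.233 and 0.258 to 0.236, 0.255, 0.298 and 0.322 (0.58 ± 0.16, adjusted p = 0.00168), where the groups overlapped. With median centring Bbs9 at 24 h differed by 0.13 and 0.16 and Bbs1 by 0.37 and 0.32, with no call, and Bbs1 with 80 mpk was also lost without treated replicate 4 or vehicle replicate 1 (0.0571 to 0.097). Bbs4 rose under multiple dosing (0.31 ± 0.10, adjusted p = 0.0104), lost without treated replicate 2 (0.0523), and Bbs2, Bbs5 and Bbs7 were not called.

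Tulp3, which binds phosphoinositides and the IFT-A complex and brings G protein-coupled receptors such as Gpr161 into the cilium, fell most among the 39 genes. At 12 h it stood at 2.18, 2.39, 2.44 and 2.57 with vehicle and 1.75, 1.83, 2.2 and 2.23 with 80 mpk (-0.26 ± 0.10, adjusted p = 0.0771). At 24 h the vehicle arrays had 1.96, 2.03, 2.1, 2.12 and 2.23, the 40 mpk arrays 1.24, 1.42, 1.44 and 1.58 and the 80 mpk arrays 1.25, 1.39, 1.43 and 1.47. No treated array reached the vehicle range, and the falls were -0.56 ± 0.09 (adjusted p = 2.21e-06) and -0.60 ± 0.09 (adjusted p = 3.39e-07). At 36 h after 80 mpk the values were 2.31, 2.39 and 2.52 with vehicle and 1.52, 1.65, 1.65 and 1.67 with treatment (-0.57 ± 0.11, adjusted p = 9.63e-05), and with 40 mpk 1.98, 2.18 and 2.29 (-0.16 ± 0.11, adjusted p = 0.583). Under multiple dosing Tulp3 fell from 2.3, 2.75, 2.79, 2.82 and 3.19 to 1.28, 1.34, 1.49 and 1.77, a change of -0.92 ± 0.09 (adjusted p = 1.01e-12). All 4 calls held in every setting and without any single array, and a second, dimmer probe set of Tulp3 moved the same way in these 4 comparisons (-0.33, -0.26, -0.45 and -0.70, the 80 mpk difference at 24 h without a call). Arl3, a GTPase that releases lipidated cargo in the cilium, rose at 12 h with 80 mpk (0.27 ± 0.09, adjusted p = 0.0381), lost without treated replicates 1, 2 and 3 or vehicle replicates 1 and 3 (0.0694 to 0.272). Inpp5e, the phosphatase that keeps the ciliary membrane poor in the lipid that Tulp3 binds, ranged from -0.05 to 0.22 and was not called.

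Of 6 genes of the transition zone, the gate at the base of the cilium, and of the basal body 2 rose at 12 h at either dose, and 2 fell at 36 h after a single 80 mpk dose and under multiple dosing. Of all genes 3.9% and 3.85% rose at 12 h with 40 and 80 mpk. At 36 h 5.64% of all genes fell after a single 80 mpk dose and 17.7% under multiple dosing. Cc2d2a, a coiled-coil protein of the gate, was at 0.946, 0.995, 1.04 and 1.07 at 12 h with vehicle, 1.29, 1.38 and 1.53 with 40 mpk and 1.04, 1.27, 1.35 and 1.4 with 80 mpk. The 40 mpk arrays lay above all vehicle arrays and 1 array of 80 mpk lay within their range, with rises of 0.46 ± 0.11 (adjusted p = 0.00449) and 0.31 ± 0.10 (adjusted p = 0.046). At 36 h Cc2d2a was at 0.896, 1.01 and 1.06 with vehicle and 0.696, 0.699, 0.713 and 0.776 with 80 mpk, a fall without overlap (-0.45 ± 0.11, adjusted p = 0.00423). Under multiple dosing it fell from 0.979, 0.991, 1.03, 1.08 and 1.17 to 0.82, 0.825, 0.868 and 0.932 (-0.29 ± 0.10, adjusted p = 0.0174). That last difference was 0.00108 with muscle and fibroblast covariates. B9d1, a tectonic-complex protein, rose at 12 h by 0.46 ± 0.13 with 40 mpk and 0.37 ± 0.12 with 80 mpk, and Mks1 of the same complex fell at 36 h with 80 mpk (-0.51 ± 0.14, adjusted p = 0.00785). Ofd1 of the distal centriole fell under multiple dosing (-0.28 ± 0.11, adjusted p = 0.0333), to -0.12 with the covariates. Tctn2 differed by up to 0.41 ± 0.14 (adjusted p = 0.0591) and Rpgrip1l by up to 0.26 ± 0.10, neither called.

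Calls of transition zone genes rested on few arrays. Cc2d2a was lost at 12 h without treated replicate 1 (0.0677) with 40 mpk, without treated replicates 1, 3 and 4 or vehicle replicates 1, 2, 3 and 4 (0.0505 to 0.183) with 80 mpk, and under multiple dosing without treated replicates 1 and 4 or vehicle replicate 4 (0.0517 to 0.0594). B9d1 was lost without treated replicates 1 and 2 or vehicle replicate 3 (0.0542 to 0.0934) with 40 mpk and treated replicates 1, 2 and 3 or vehicle replicates 3 and 4 (0.0508 to 0.175) with 80 mpk, Mks1 without vehicle replicate 3 (0.151) and Ofd1 without treated replicates 3 and 4 or vehicle replicates 4 and 5 (0.0619 to 0.0994). The fall of Cc2d2a at 36 h after a single dose held without any single array.

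Among the 8 hedgehog transduction genes Spop was called in 7 comparisons, Stk36 in 5 and Kif7 in 3. Stk36 (fused), a kinase that acts on Ci in Drosophila and in mice is needed for motile cilia, showed the largest rise of all 39 genes. At 12 h vehicle arrays had 0.0747, 0.107, 0.112 and 0.122, the 40 mpk arrays 0.192, 0.21 and 0.234 and the 80 mpk arrays 0.14, 0.14, 0.2 and 0.234. At 24 h these were 0.0893, 0.0923, 0.0969, 0.0977 and 0.109 with vehicle, 0.138, 0.168, 0.173 and 0.198 with 40 mpk and 0.146, 0.163, 0.175 and 0.199 with 80 mpk. No treated array overlapped vehicle at either time, and the rises were 1.05 ± 0.17 (adjusted p = 6.24e-06) and 0.77 ± 0.15 (adjusted p = 0.000212) at 12 h and 0.80 ± 0.15 (adjusted p = 1.80e-05) and 0.81 ± 0.15 (adjusted p = 7.92e-06) at 24 h. At 36 h after a single dose the difference was 0.34 ± 0.17 (adjusted p = 0.208) with 80 mpk and 0.04 ± 0.18 with 40 mpk. Under multiple dosing Stk36 rose from 0.1, 0.115, 0.125, 0.13 and 0.136 to 0.194, 0.203, 0.275 and 0.283 (0.96 ± 0.15, adjusted p = 1.35e-07). None of the 5 calls was lost without a single array, and 1, that with 80 mpk at 12 h, was lost when only the groups compared were fitted. Stk36 intensities lay near the array medians.

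Spop, the adaptor by which a Cul3 ubiquitin ligase marks Gli2 and Gli3 for degradation, had the most calls of the 39 and was lower in 7 of 11 comparisons. At 6 h vehicle arrays had 7.44, 7.55, 7.91, 7.93 and 9.56 and the 80 mpk arrays 5.6, 6.22 and 6.5, a fall of -0.40 ± 0.09 (adjusted p = 0.00663). At 12 h the values were 7.28, 7.59, 7.7 and 8.88 with vehicle, 5.8, 6.09 and 6.49 with 40 mpk and 4.91, 5.17, 5.64 and 6.07 with 80 mpk (-0.36 ± 0.10, adjusted p = 0.0127 and -0.53 ± 0.09, adjusted p = 1.12e-05). The treated arrays of both times lay below all vehicle arrays. At 24 h Spop was at 6.12, 6.42, 7.05, 7.08 and 7.48 with vehicle, 4.73, 5.41, 5.81 and 5.88 with 40 mpk and 5.05, 5.16, 6.14 and 6.25 with 80 mpk (-0.33 ± 0.08, adjusted p = 0.00236 and -0.28 ± 0.08, adjusted p = 0.00779), where 80 mpk arrays overlapped vehicle. At 36 h it fell from 6.92, 7.28 and 7.37 to 4.95, 4.95, 5.59 and 6.45 after a single 80 mpk dose (-0.40 ± 0.10, adjusted p = 0.00309), and under multiple dosing from 6.76, 7.57, 7.86, 8.19 and 9.28 to 5.15, 5.83, 6.19 and 7.32 (-0.38 ± 0.08, adjusted p = 0.000203), with overlap. The call at 6 h was lost without treated replicate 3 (0.134), that with 40 mpk at 12 h without treated replicates 1 and 2 or vehicle replicate 4 (0.0527 to 0.102) and that with 80 mpk at 24 h without treated replicate 2 (0.0531), with adjusted p in parentheses. A second probe set of Spop differed by -1.06, -0.94 and -1.25 at 24 h with 40 and 80 mpk and under multiple dosing, and by 0.0044 and 0.16 at 12 h, so that the mean of all probe sets was not called at 12 h (-0.18 and -0.16).

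Evc2, which with Evc forms a complex at the base of the cilium that relays the signal from Smo, fell at 36 h after 80 mpk (-0.32 ± 0.08, adjusted p = 0.00597, lost without vehicle replicate 3 (0.0678)). It fell under multiple dosing from 1.04, 1.09, 1.11, 1.14 and 1.22 to 0.856, 0.869, 0.925 and 0.973 without overlap (-0.31 ± 0.07, adjusted p = 0.0004), a call that held in every setting. Evc itself ranged from -0.47 to 0.17 and was not called. Under multiple dosing Evc was called lower without vehicle replicate 2 (adjusted p = 0.0105) or treated replicate 3 (adjusted p = 0.0296). Kif7, the kinesin that organises the ciliary tip where Gli and Sufu gather, was at 0.338, 0.343, 0.346 and 0.361 at 12 h with vehicle and 0.39, 0.423 and 0.473 with 40 mpk (0.30 ± 0.10, adjusted p = 0.0399). It was at 0.277, 0.347 and 0.35 at 36 h with vehicle and 0.245, 0.248, 0.268 and 0.27 with 80 mpk (-0.33 ± 0.10, adjusted p = 0.0166), and fell under multiple dosing from 0.315, 0.334, 0.362, 0.388 and 0.404 to 0.293, 0.298, 0.299 and 0.3 (-0.27 ± 0.08, adjusted p = 0.00697). All 3 contrasts were without overlap, yet the 12 h call was lost without treated replicates 1 and 3 or vehicle replicates 1, 2, 3 and 4 (0.0522 to 0.309) and the 36 h call without vehicle replicates 1 and 3 (0.126 to 0.142). With the mean of all probe sets none of the 3 was called (0.13, -0.18 and -0.05), and the call under multiple dosing was also lost with muscle and fibroblast covariates (-0.14). Over all settings other than leaving out single arrays, the 3 calls of Kif7 were lost in 5, 3 and 3.

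Rab23, a GTPase that restrains the pathway in mice, fell at 12 h with 80 mpk from 0.717, 0.761, 0.792 and 0.803 to 0.578, 0.629, 0.641 and 0.645 (-0.30 ± 0.07, adjusted p = 0.00217). That call was lost in 5 settings, namely the mean of all probe sets (-0.20), a second quantile normalization (-0.24), median centring (-0.25), without muscle-rich arrays (-0.24) and with only the groups compared. Under multiple dosing it changed by -0.18 ± 0.07 (adjusted p = 0.0322), a call lost without treated replicates 1 and 3 or vehicle replicates 2, 4 and 5 (0.0596 to 0.124) and at 0.03 with muscle and fibroblast covariates. Sufu, the main brake on Gli proteins, ranged from -0.33 to 0.27 and was not called. Without treated replicate 4, however, Sufu was called lower with 80 mpk at 12 h (-0.48, adjusted p = 0.0132). Another probe set of Sufu gave calls that are listed under other observations. Gpr161, the ciliary receptor that keeps protein kinase A active, was dim. Over the 75 arrays its intensity stayed between 0.0619 and 0.107, below every array median, and no difference was called (-0.26 to 0.09). Rfx3, the transcription factor of cilium genes, ranged from -0.01 to 0.40 and was not called, the largest value falling at 1 h with 40 mpk (adjusted p = 0.287).

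**Figure D3:**
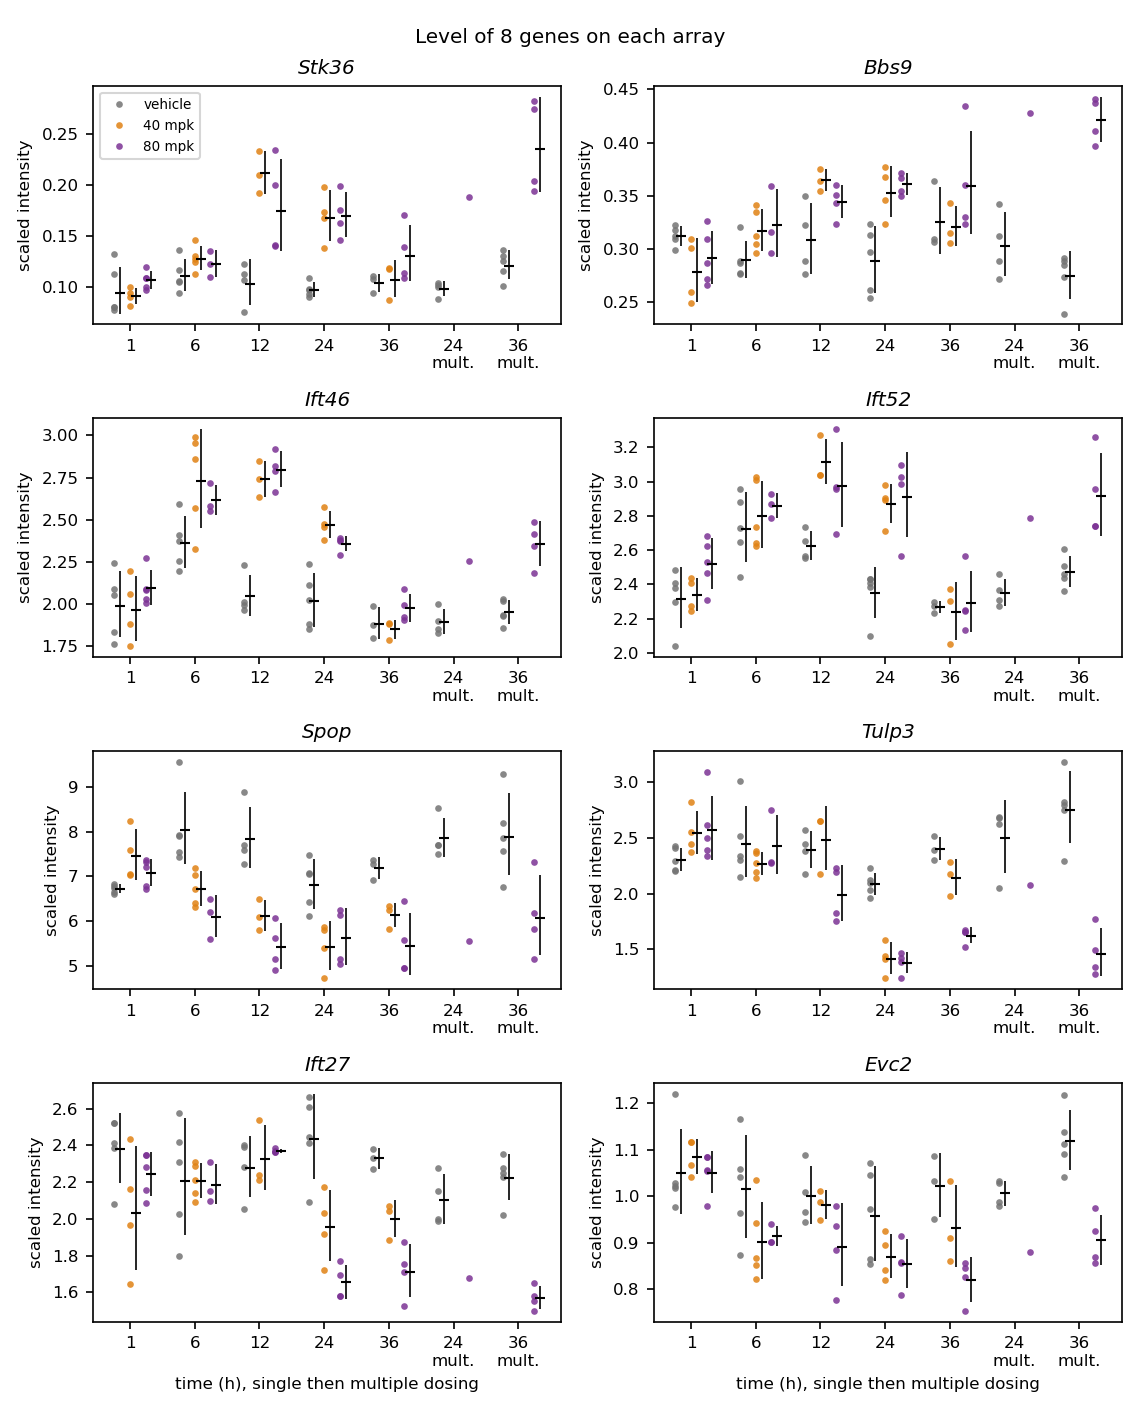
Scaled intensity of 8 members on each array (points) by time and schedule, grey for vehicle, orange for 40 mpk and purple for 80 mpk, with the geometric mean and 1 SD of the log2 values as bars. Stk36 stands above vehicle at 12 h, 24 h and under multiple dosing, and Tulp3 and Ift27 stand below it at 24 h and at 36 h with 80 mpk.

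Whether an effect differed between times was tested directly. From 12 h to 24 h with 80 mpk the effect fell for 7 members and rose for 0, where 17.4% of all genes differed, 9.4% rising and 8.02% falling. For Ift27 the difference was -0.62 ± 0.12 (adjusted p = 0.000119), and it held without any single array of the 4 groups. The other 6 were Ift57 at -0.77 ± 0.24 (adjusted p = 0.0191), Mks1 at -0.54 ± 0.17 (adjusted p = 0.0229), Bbs7 at -0.51 ± 0.18 (adjusted p = 0.0411), Ift80 at -0.49 ± 0.16 (adjusted p = 0.0244), Arl3 at -0.43 ± 0.12 (adjusted p = 0.00906) and Cc2d2a at -0.41 ± 0.14 (adjusted p = 0.0379). These 6 stood above vehicle at 12 h (0.33, 0.32, 0.21, 0.40, 0.27 and 0.31) and below it at 24 h (-0.45, -0.22, -0.30, -0.09, -0.16 and -0.10). Of these single differences Ift80, Arl3 and Cc2d2a at 12 h and Ift57 at 24 h were called. Bbs7 was dim, its geometric mean over all arrays of 0.105 lying below the lowest array median of 0.109. Each of the 6 was lost without at least 1 array. For Arl3 that was replicate 3 of vehicle at 12 h (adjusted p = 0.0537), for Ift57 the range was 0.056 to 0.0573, for Mks1 0.0676 to 0.0718, for Ift80 0.0521 to 0.074, for Bbs7 0.0507 to 0.0903 and for Cc2d2a 0.052 to 0.106. Ift57 in vehicle arrays stood at 1.07 to 1.37 at 12 h and 1.55 to 1.88 at 24 h, so that its vehicle level differed too. Centring on the median lowered all these differences by a median of 0.21 and gave 13 calls, with no share over all genes computed in that setting.

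**Figure D4:**
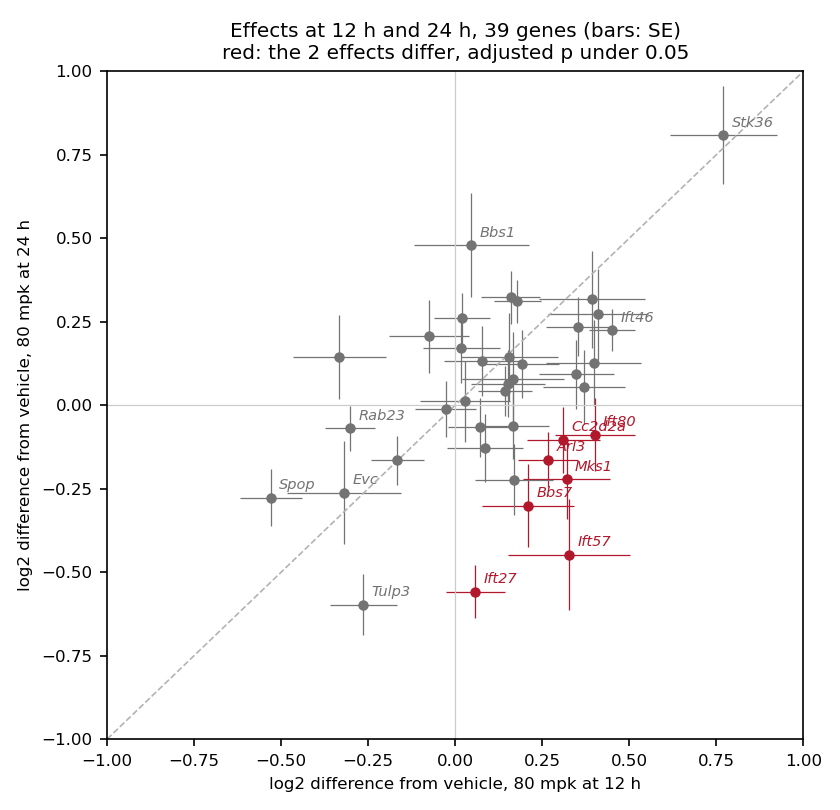
Log2 difference of 80 mpk from vehicle at 12 h (x axis) and at 24 h (y axis) for the 39 members, with SE as bars and a dashed line of equal effects. The 7 members in red, whose effects differed between the times, lie below the line, and Stk36 lies near it at 0.77 and 0.81.

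From 24 h to 36 h the effect of 40 mpk fell for 4 members (6.11% of all genes differed), namely Stk36 at -0.75 ± 0.23 (adjusted p = 0.0338), Dync2li1 at -0.73 ± 0.23 (adjusted p = 0.038), Ift46 at -0.32 ± 0.10 (adjusted p = 0.0424) and Ift52 at -0.31 ± 0.10 (adjusted p = 0.0482). With 80 mpk it fell for Dync2li1 alone, at -0.68 ± 0.22 (adjusted p = 0.0493) (5.74% of all genes). All 5 calls were lost without 1 of several arrays, at adjusted p-values up to 0.159, 0.145, 0.205 and 0.156 for Dync2li1, Ift46, Ift52 and Stk36 with 40 mpk and up to 0.201 for Dync2li1 with 80 mpk. From 6 h to 12 h limma found 0 members whose 80 mpk effect differed (0.176% of all genes), with 7 at an unadjusted p under 0.05. At 36 h multiple dosing exceeded a single dose for Bbs9, by 0.47 ± 0.12 (adjusted p = 0.00576) (7.26% of all genes), a call lost without replicate 1 of single-dose vehicle (adjusted p = 0.054). The fall of Tulp3 was -0.92 with multiple and -0.57 with single dosing, and the difference of these effects was -0.35 ± 0.14 (adjusted p = 0.13).

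The doses were compared at each time. At 12 h Rab23 was lower with 80 than with 40 mpk, at 0.578, 0.629, 0.641 and 0.645 against 0.768, 0.812 and 0.817, a difference of -0.36 ± 0.08 (adjusted p = 0.042) where 0.0603% of all genes were called. At 36 h Tulp3 was lower with 80 mpk (-0.40 ± 0.11, adjusted p = 0.0478, 0.826% of all genes). Limma called 0 members at 1, 6 and 24 h (0%, 0% and 1.21% of all genes), with 1, 0 and 2 at an unadjusted p under 0.05. Neither of the 2 dose calls held under quantile normalization or median centring.

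Some members also differed between times in tumours that received vehicle. Across the 5 single-dose vehicle times 8 members differed (limma F test, 6.28% of all genes), namely Ift46, Ift52, Ift57, Ift140, Kif3b, Kif7, Sufu and Rab23. Ift46, Ift52, Kif7, Sufu and Ift140 were highest at 6 h, with mean log2 of 1.24 for Ift46 against 0.91 at 36 h (adjusted p = 0.00911). Sufu ranged most of these 5, from 1.67, 1.69, 1.7, 1.8 and 2.1 at 6 h to 1.09, 1.19, 1.2, 1.2 and 1.37 at 24 h (adjusted p = 0.0126). Kif3b was highest at 12 h and Rab23 at 36 h. Ift57 was lowest at 6 h (0.783, 1, 1.08, 1.31 and 1.51) and highest at 24 h (1.55, 1.59, 1.59, 1.84 and 1.88), with an adjusted p = 0.0384. With median centring 1 of the 8 calls was left, with no share over all genes computed in that setting. Between the schedules, vehicle arrays of multiple dosing differed from single dosing at 24 h in Ift57 (-0.54 ± 0.17, adjusted p = 0.0417) and Sufu (0.42 ± 0.13, adjusted p = 0.0366), where 5.51% of all genes were called. At 36 h they differed in Rfx3, at 0.208, 0.242, 0.245, 0.246 and 0.272 against 0.14, 0.142 and 0.16 (0.72 ± 0.14, adjusted p = 0.0321; 0.0278% of all genes). Each treatment comparison used vehicle of its own time and schedule, as set beforehand.

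**Figure D5:**
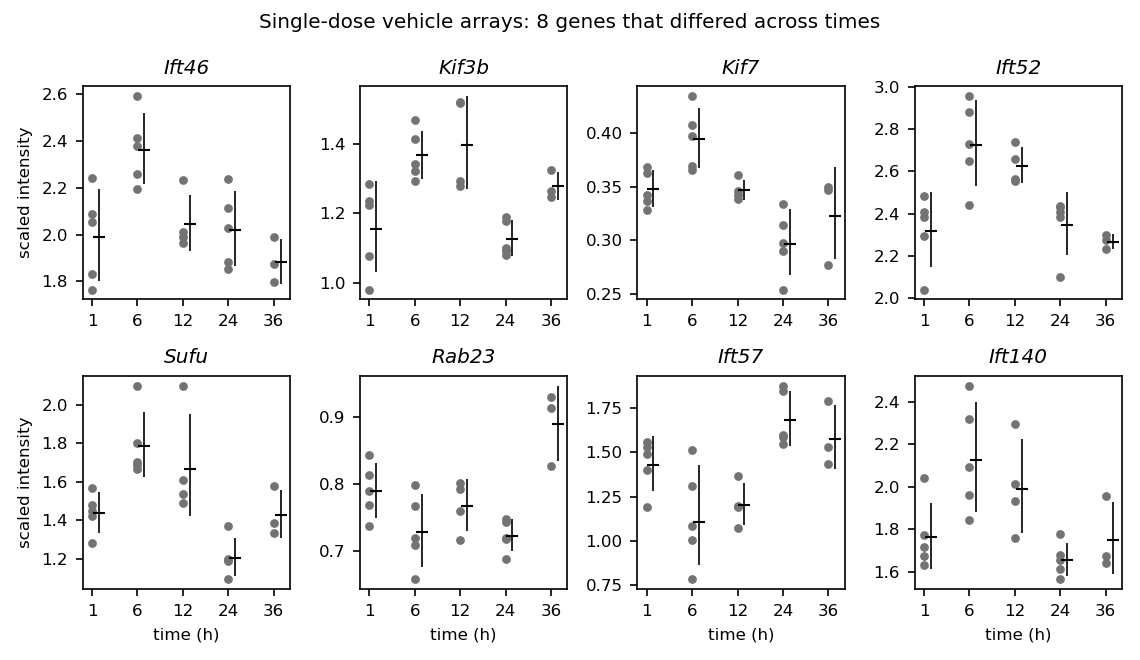
Scaled intensity of the 8 members that differed across times on the single-dose vehicle arrays (points), with the geometric mean and 1 SD of the log2 values as bars, against time after dosing. Ift46, Ift52, Kif7, Sufu and Ift140 peak at 6 h and Ift57 is highest at 24 h.

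The single array of multiple 80 mpk at 24 h was set against its 4 vehicle arrays with no test. It had 2 members past 1.5-fold higher and 0 lower, where 11.9% of all genes were past 1.5-fold. Stk36 was at 0.188 against a vehicle mean of 0.0978 and Bbs1 at 0.286 against 0.189. The median difference was 0.14 over the members and -0.02 over all genes.

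Genes around the members moved as follows. Of 36 measured core pathway genes outside the list 8 were higher and 7 lower at 24 h with 80 mpk, and 1 and 5 at 12 h. Among all genes 17.6% were higher and 15.3% lower at 24 h with 80 mpk, and 3.85% and 5.99% at 12 h. These shares were 5.22% and 5.64% at 36 h after a single 80 mpk dose, and 19.8% and 17.7% under multiple dosing. The receptor Ptch1 changed by -1.39, the transcription factor Gli2 by -1.33, the co-receptor Boc by -1.22 and Cul1, a scaffold of another ubiquitin ligase, by -0.38 at 24 h, and Prkacb, a catalytic subunit of protein kinase A, rose by 0.68. Of 50 other cilium genes 9 were higher and 0 lower at 12 h with 80 mpk (median 0.09), 7 and 14 at 24 h (median -0.07), 1 and 12 at 36 h (median -0.21) and 5 and 25 under multiple dosing (median -0.21). With 40 mpk the other cilium genes had 7 higher and 1 lower at 12 h (3.9% and 2.59% of all genes). At 24 h they had 5 and 11 (14.5% and 12.1%). The falls at 24 h with 80 mpk included the centriole appendage genes Cep83 (-0.86 ± 0.09, adjusted p = 4.85e-12), Cep89 (-0.93) and Odf2 (-0.77) and the transition zone genes Nphp4 (-0.56) and B9d2 (-0.42), whereas Kifap3, the adaptor of the IFT kinesin, rose by 0.42.

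Most genes that act in cilium disassembly and centriole duplication were lower at 24 h, as were genes of mitosis and replication. Of 14 such genes 11 were lower and 1 higher at 24 h with 80 mpk (median -0.96) and 10 and 1 under multiple dosing (median -1.27), against 2 lower at 12 h. Plk4, the kinase that starts centriole duplication, changed by -1.74 ± 0.10 (adjusted p = 8.47e-21), Aurka, which triggers disassembly, by -1.63, and Plk1 by -1.74. Of 17 mitosis genes 16 were lower at 24 h with 80 mpk (Bub1 -1.92, Cdk1 -1.71) and 17 under multiple dosing, and of 19 replication genes all 19 were lower in both (Cdc45 -1.96). Of 20 motile cilium genes 3 were higher and 1 lower at 24 h with 80 mpk, namely Rsph9 (0.82), Tppp3 (0.59), Cfap126 (0.57) and Dnah11 (-0.28), and the mean log2 of the list stayed between -3.18 and -2.82 on all arrays.

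Host cell markers moved with the same comparisons. All 12 macrophage genes were higher at 24 h with 80 mpk (Cd68 1.81), and the list's mean log2 ran from 3.06 to 3.57 with 80 mpk and from 1.70 to 2.59 with vehicle. With 40 mpk at 24 h 8 of 12 were higher. At 36 h after a single 80 mpk dose, where the called members were all lower, 11 of 12 macrophage genes were higher, with list means of 2.65 to 3.03 against 0.88 to 2.35, while 0 of 9 fibroblast genes were called. Under multiple dosing 11 of 12 were higher, with 2.95 to 3.68 against 1.19 to 1.94. Fibroblast genes were higher for 8 of 9 with 80 mpk at 24 h and under multiple dosing, with a median list mean of 3.27 against 1.93 at 24 h and some overlap of the arrays, and endothelial genes for 8 of 10 and 7 of 10. Muscle genes had 0 of 14 called with 80 mpk at 24 h, with list means of -3.08 to 3.86 against -3.09 to 1.26, and 4 of 14 higher with 40 mpk. At 12 h with 80 mpk these lists had 0 calls except for 1 endothelial gene that was lower. The part of host cells in the members' differences at 24 h and 36 h was not tested beyond the fits without muscle-rich arrays and with muscle and fibroblast covariates. With those covariates 58 of the 66 calls of members held, 6 were lost and 2 reversed in sign without a call, Cc2d2a and Rab23 under multiple dosing. Fibroblast list means of treated and vehicle arrays did not overlap under multiple dosing, so there the fit cannot separate the covariate from treatment.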

How the data were processed

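RNA from 75 tumour samples was measured on one-colour arrays, from total RNA labelled as biotin cRNA per the labels. The deposited values are linear intensities of 43681 probe sets, each array having a mean of 1; per the submitters' processing notes the authors used RMA, with no settings given, and the genome build is not given in the sources used here. Values ran from 0.0166 to 99.9, and no 2 arrays correlated below 0.929. The labels do not state how arrays map to mice or tumours.

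Of the probe sets 30342 had 1 gene symbol in the platform annotation and 13339 were unnamed and not used; 15257 symbols were updated through RefSeq accessions and 53 without a match were kept. The probe set with the highest mean stood for a gene, which gave 21552 genes, 6060 of them with several probe sets. Of the 39 members 18 had several, 60 in all. Ift27, Ift46 and Cc2d2a were found under older symbols (Rabl4, 1500035H01Rik, 5730509K17Rik).

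Values were taken to log2 with no pseudocount and fitted with limma 3.58.1 in R 4.3.3, with 1 mean for each of 19 groups over all arrays (56 residual degrees of freedom, 3.37 prior), a moderated test for each comparison and Benjamini-Hochberg adjustment over all genes. Tables used pandas 2.3.3 and numpy 2.4.6 under Python 3.11.15, and figures matplotlib 3.10.9. The fit was tested on simulated data for 80 mpk at 24 h over 21552 genes. It recovered 18% of genes changed by 0.3, 82% by 0.5, 92% by 1 and 100% by 2 (log2), and called 6 unchanged genes. The simulation changed 50 genes of each size and drew the noise of each gene independently. In the data 7095 genes were called in this comparison, so recovery and false calls may differ there. The single array of multiple 80 mpk at 24 h was given as values only.

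Members and gene lists were chosen with earlier results of these data known. Genes called in 3 or more treatment comparisons were named with their values on every array of the groups in which they were called, and other members by counts and ranges, except Kif3b, Evc2, Rab23, Ift57, Sufu and Rfx3, whose arrays were shown after their values were seen. Alternatives were the mean of all probe sets, leaving out dim genes, a second quantile normalization, median centring, a trended robust prior, array weights, a replicate block, muscle and fibroblast covariates, leaving out muscle-rich arrays, fitting only the groups compared, and leaving out each array in turn. Promoter windows and their sequences are from RefSeq (GRCm38.p6).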

Additional observations from a re-analysis of the deposited data

Results flagged for a closer look

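In 67 pairs of a member and a group of 4 or 5 arrays, 3 had an array far from the others, where chance gives about 1 in 20. Ift52 was at 2.1 on replicate 1 of single-dose vehicle at 24 h and at 2.38 to 2.43 on the others. Tulp3 was at 1.52 on replicate 4 of 80 mpk at 36 h and at 1.65 to 1.67 on the others. Spop was at 9.56 on replicate 5 of single-dose vehicle at 6 h and at 7.44 to 7.93 on the others. Their cause was not tested.

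The test of the difference between 2 effects passed in 13 cases. From 12 h to 24 h with 80 mpk the effect changed by -0.62 for Ift27, -0.77 for Ift57, -0.49 for Ift80, -0.51 for Bbs7, -0.43 for Arl3, -0.54 for Mks1 and -0.41 for Cc2d2a on the log2 scale. From 24 h to 36 h it changed by -0.68 for Dync2li1 with 80 mpk, and with 40 mpk by -0.32 for Ift46, -0.31 for Ift52, -0.73 for Dync2li1 and -0.75 for Stk36. At 36 h the effect of 80 mpk was higher with multiple than with single dosing for Bbs9, by 0.47. Of the 13, only that of Ift27 held without any single array.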

How the results depend on the processing

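Of 66 calls of a member in a treatment comparison 18 held in every setting run: Ift46 at 12 h with both doses, Stk36 in all but 80 mpk at 12 h, Spop at 24 h with 40 mpk, Tulp3 in all 4, Ift27 in its 3 calls with 80 mpk, and Spop, Bbs1, Bbs9 and Evc2 under multiple dosing. All 66 held with dim genes left out (14368 genes, 38 members) and with a trended robust prior, 64 with the replicate block, 63 with array weights, 58 with muscle and fibroblast covariates, 54 with a second quantile normalization, 52 with the mean of all probe sets, 46 in fits of only the groups compared, 40 with median centring and 37 without muscle-rich arrays, where fewer arrays were fitted. Over fits that left out 1 array 461 held and 92 were lost. Leaving out 1 array also gave calls that the main fit lacked. With 40 mpk these were Ift46 at 6 h, Rpgrip1l, Ift140 and Bbs9 at 12 h and Tctn2 at 24 h. With 80 mpk they were Tctn2, Tulp3, Ift52, Bbs2 and Sufu at 12 h. Later with 80 mpk they were Ofd1, Evc2 and Bbs7 at 24 h and Ofd1 at 36 h. Under multiple dosing they were Ift80, Arl3, Dync2li1, Tctn2, Evc, Inpp5e and Mks1. The 2 that reversed, with covariates under multiple dosing, were Cc2d2a at 0.00108 and Rab23 at 0.0274.

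Counts of called members moved as follows, with shares of all genes in parentheses where not given above. These shares were not computed for counts between doses, vehicle schedules, vehicle times or effects. Leaving out each array in turn gave 0 to 0, 0 to 1, 2 to 8, 9 to 12 and 0 to 0 with 40 mpk at 1, 6, 12, 24 and 36 h, 0 to 0, 0 to 1, 5 to 10, 9 to 12 and 4 to 8 with 80 mpk, and 14 to 19 under multiple dosing. Shares of all genes were 0% to 0.2%, 1.22% to 1.71%, 3.59% to 6.83%, 20.9% to 27.5% and 0.195% to 1.47% with 40 mpk. With 80 mpk they were 0% to 0.00464%, 1.1% to 1.72%, 7.38% to 9.94%, 29.1% to 32.2% and 5.92% to 12.7%. Under multiple dosing they were 33.2% to 37.5%. Dim genes left out gave 1 with 40 mpk at 6 h (2.96% of the genes left). Quantile normalization gave 1 and 7 with 40 mpk at 6 and 24 h (1.59% and 27.7%). It gave 0 between doses at 12 and 36 h and 4 between vehicle schedules at 24 h. For the effect difference it gave 12 from 12 to 24 h and 2 for that of 40 mpk from 24 to 36 h. Median centring gave 6 with 40 mpk at 24 h (41%) and with 80 mpk at 12 h (7.12%). It gave 0 between doses at 12 and 36 h, and 5 and 0 between vehicle schedules at 24 and 36 h. Effect differences numbered 13 from 12 to 24 h and 0 from 24 to 36 h and between schedules. Across vehicle times 1 was left. Array weights gave 14 with 40 mpk at 12 h (10.9%) and 3 with 80 mpk at 6 h (2.82%). Covariates gave 1 and 2 at 6 h with 40 and 80 mpk (2.46% and 2.33%). Without muscle-rich arrays the counts were 5 and 4 with 40 mpk at 12 and 24 h, and 0, 4 and 7 with 80 mpk at 6, 12 and 24 h. Only the groups compared gave 3 with 40 mpk at 12 h (3.04%). With 80 mpk at 6, 12 and 36 h they gave 0, 4 and 3 (0.51%, 4.67% and 3.99%). The causes were not tested.

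Arrays of the same replicate number did not deviate together in every pair of any comparison (correlations from -0.61 to 0.504). With the replicate block 2 calls were lost, Dync2li1 with 40 mpk at 24 h (adjusted p = 0.0546) and Cc2d2a with 80 mpk at 12 h (adjusted p = 0.0538), and the counts were 0 between doses at 36 h, 0 between vehicle schedules at 36 h, 0 for the effect difference of 80 mpk and 2 for that of 40 mpk from 24 to 36 h.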

Other observations

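Other probe sets of members that were not called gave calls when adjusted over all probe sets. One of Ift122 was higher with 40 mpk at 12 h (0.52) and 24 h (0.35). One of Kif3a was higher with 40 mpk at 24 h (0.35) and another lower under multiple dosing (-0.50). Under multiple dosing one of Rpgrip1l (-0.60), one of Rfx3 (-0.42) and one of Sufu (-0.28) were lower, the last also with 80 mpk at 24 h (-0.28).

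Neuronal differentiation genes were higher for 6 of 14 at 12 h and 9 of 14 at 24 h with 80 mpk, with 0 and 1 lower, and for 8 of 14 under multiple dosing. Granule neuron progenitor genes were higher for 5 of 10 at 12 h with 80 mpk and for 4 of 10 at 24 h, with 0 and 1 lower. At 36 h 2 were higher and 2 lower after a single 80 mpk dose, and 4 and 3 under multiple dosing. Among all genes 3.85% were higher and 5.99% lower at 12 h with 80 mpk, and 17.6% and 15.3% at 24 h. At 36 h these shares were 5.22% and 5.64% after a single 80 mpk dose, and 19.8% and 17.7% under multiple dosing. The progenitor list held Mycn and Sfrp1 besides the planned markers. Whether the share or identity of progenitors changed was not tested.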
